A study of Mus musculus with 22 samples.

Results

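The values of 9 annotated genes and pseudogenes of the very large GTPase cluster on mouse chromosome 7 (9130208D14Rik, Gm45912, Gm4070, Gm20663, Gm8979, Gm27149, Gvin1, Gm8995 and Gm1966) are described in duodenal organoids exposed to cold atmospheric plasma (CAP, an ionized gas produced by a helium jet that creates reactive oxygen and nitrogen species). They are the 9 rows with these names among 52636 rows of the expression table. They were chosen by their lower values in the libraries treated from day 1 than in untreated organoids, so that every comparison of the members with the untreated libraries is given here as a description without a test. RNA-seq was performed on 22 libraries of wild-type organoids, which are three-dimensional cultures of epithelium grown from crypts of adult CD1 outbred mice aged 2 months. There were 4 untreated libraries, 1 from each of 4 organoid lines, and 3 libraries (lines 1, 2 and 4) in each of 6 treated groups. Each line came from 1 mouse, so that the replicates are mice. Lines 1 and 2 were at passage 12 and 14 and lines 3 and 4 at passage 4 per the labels. In the direct groups, plasma was applied to the organoids at day 1 and the medium was changed after 30 min or 24 h. In the indirect groups, organoids received medium taken from a treated organoid culture, and in the PAM groups (plasma-activated medium) they received medium that had been treated without organoids. The labels give 30 minutes or 24 hours for the indirect and PAM groups, whereas the methods give these media from day 1 or from day 2. Libraries labelled 30 minutes were read as day 1 and those labelled 24 hours as day 2. This match is assumed, since the labels do not state it, and all results by day for these groups rest on it. The methods end the cultures at day 3.

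Very large inducible GTPases (GVINs, also called VLIGs) are giant cytosolic proteins described as products of interferon-induced genes in mouse cells. They belong to the same wider group of interferon-inducible GTPases as the guanylate-binding proteins, the immunity-related GTPases and the Mx proteins, which act in cell-autonomous defence against bacteria, parasites and viruses. In the mouse, their genes form a tandem array in which a few copies keep an open reading frame and many are annotated as pseudogenes, some of them transcribed.

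The 9 members lie within 780772 bases of chromosome 7 (GRCm38, from 105823264 to 106604035). Gvin1 (106156556 to 106215326) and Gm4070 (105895139 to 105953967) are annotated as protein coding, on the minus strand. 9130208D14Rik (105824223 to 105831515) is an unprocessed pseudogene of 7293 bases in 1 exon on the same strand. Gm45912 (105823264 to 105823806), 543 bases that the annotation marks as still to be experimentally checked, begins 416 bases beyond the 3′ end of 9130208D14Rik on the same strand. Gm8979, Gm27149, Gm8995 and Gm1966 are pseudogenes on the minus strand as well, Gm8995 being annotated as transcribed. Gm20663 (105901568 to 106093337) is an antisense transcript of 474 bases on the plus strand, whose exon from 105901568 to 105901887 lies inside an exon of Gm4070.

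**Figure D1:**
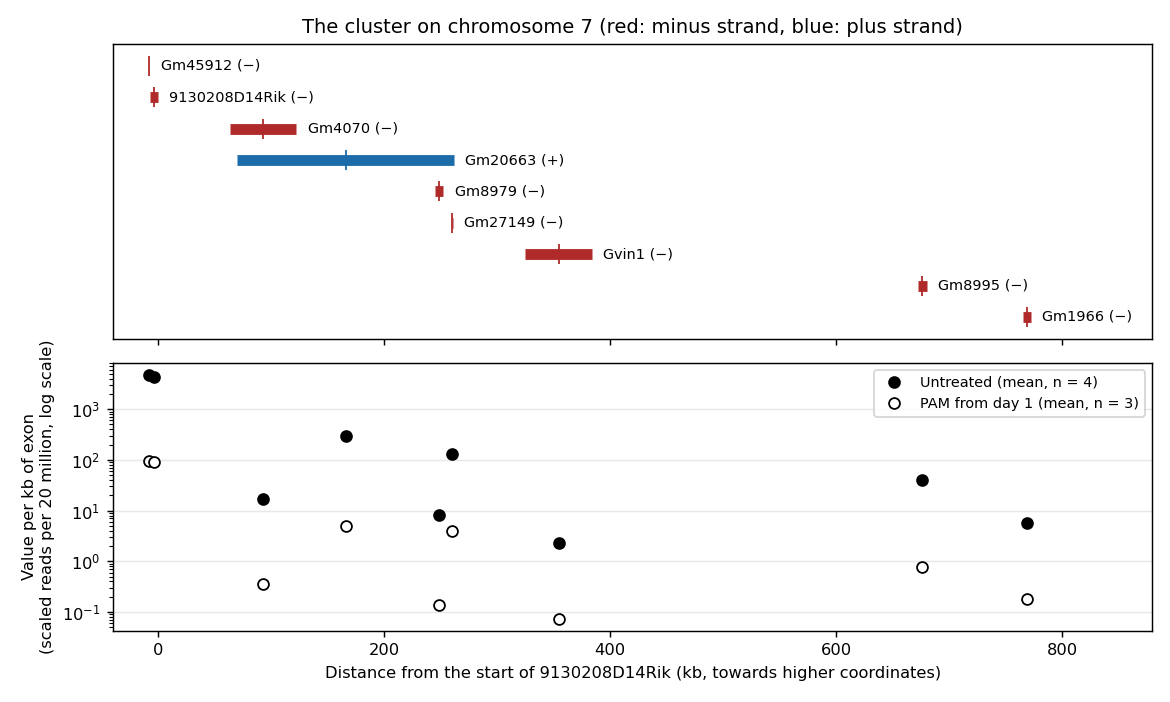
Upper panel: extent of the 9 members along chromosome 7 as the distance in kb from the start of 9130208D14Rik, with minus-strand genes in red and the plus-strand Gm20663 in blue. Lower panel: mean value per kb of exon (scaled reads, log scale) in untreated organoids (filled, n = 4) and with PAM from day 1 (open, n = 3). 9130208D14Rik and Gm45912 stand far above the other members at the left end of the cluster, and every open point lies below its filled point.

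Several members share sequence, which limits what a row can say of its own gene. In 100-base windows of the annotated transcripts, 100% of the windows of Gm27149 are found in 9130208D14Rik, and its whole 1266 bases equal the 5′ end of that pseudogene (105830250 to 105831515). Of the windows of Gvin1, 96.7% are found in Gm4070, and 92.9% of those of Gm4070 in Gvin1. For Gm20663, 59.5% of the windows are the reverse complement of windows in 9130208D14Rik, Gm4070 and Gvin1. Gm8979 shares 61.5% of its windows with Gm8989, a pseudogene of the same array that is no member. By contrast, 98.9% of the windows of Gm1966, 97.0% of those of Gm8995, 65.6% of those of 9130208D14Rik and 100% of those of Gm45912 are found in no other annotated gene. How reads mapping to more than 1 place and the strand of the reads were treated in the counting is not given in the sources used here, so that the values of Gm27149, Gvin1, Gm4070, Gm20663 and Gm8979, of whose windows 29.0% are found in no other gene, are uncertain and the members are read as 1 locus.

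**Figure D2:**
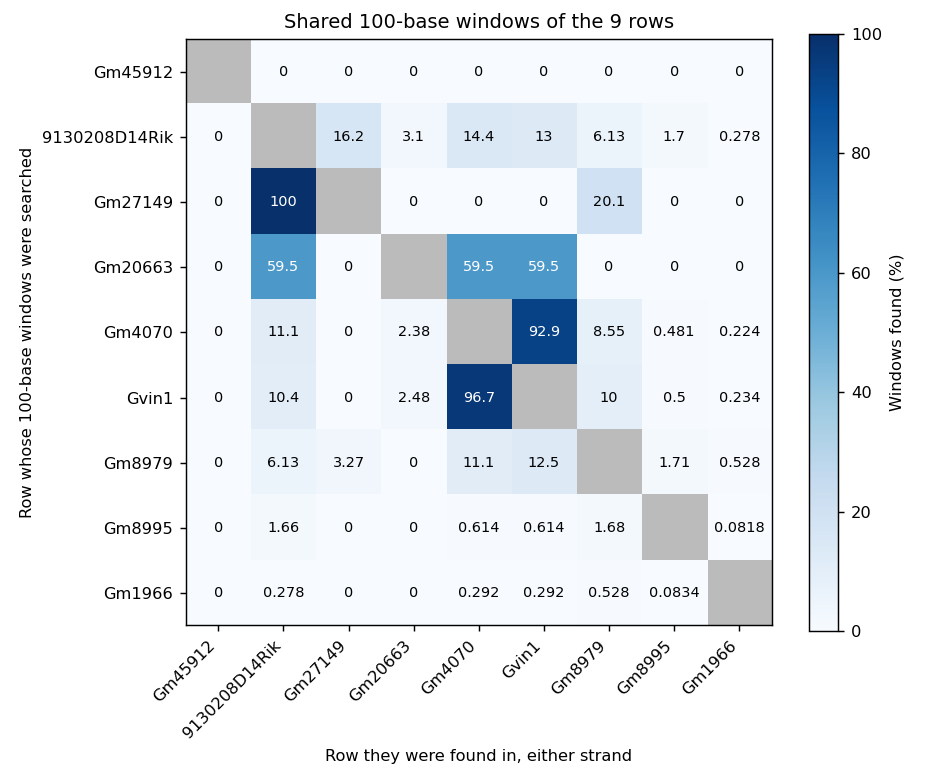
Percentage of the 100-base windows of each row (vertical axis) found on either strand in the transcripts of each other row (horizontal axis), from 0 to 100% by shade. Gm27149 lies wholly in 9130208D14Rik (100%), Gvin1 and Gm4070 nearly coincide (96.7% and 92.9%), and Gm45912 shares 0 windows with any other member.

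The 100 bases below show how close the copies are at the part of Gm20663 that lies opposite Gm4070. They are read 5′ to 3′ on the minus strand of GRCm38 from GENCODE vM21 transcripts, and capitals mark bases that differ from 9130208D14Rik or are added to it. In 9130208D14Rik the stretch is chr7:105829463-105829562. The same 100 letters stand in the coding sequence of Gm4070 (chr7:105901788-105901887) and Gvin1 (chr7:106163205-106163304) and, as the reverse complement, in the first exon of Gm20663. Gm8979 (chr7:106081994-106082093) and Gm1966 (chr7:106601980-106602079) differ from it by 10 edits each and Gm8995 (chr7:106509619-106509719) by 5 edits.
9130208D14Rik: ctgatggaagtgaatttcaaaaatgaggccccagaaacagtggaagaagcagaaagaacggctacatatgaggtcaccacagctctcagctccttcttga
Gm8995: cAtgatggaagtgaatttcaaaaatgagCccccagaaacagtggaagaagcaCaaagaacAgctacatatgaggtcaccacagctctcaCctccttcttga
Gm8979: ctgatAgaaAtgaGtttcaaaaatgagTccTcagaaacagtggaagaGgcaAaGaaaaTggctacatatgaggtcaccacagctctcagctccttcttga
Gm1966: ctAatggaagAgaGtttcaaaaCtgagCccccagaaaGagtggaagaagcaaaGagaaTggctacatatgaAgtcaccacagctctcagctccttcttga

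The first 100 bases of Gm27149 (chr7:106092376-106092475) are shown because they are the same as those of 9130208D14Rik (chr7:105831416-105831515) and tell both from the other copies. The matching stretches of Gm4070 (chr7:105903744-105903843), Gvin1 (chr7:106165161-106165260) and Gm8979 (chr7:106083947-106084046) carry 16 edits and are identical to one another, and that of Gm8995 (chr7:106511572-106511671) carries 17 edits. The first 100 bases of Gm45912 (chr7:105823707-105823806) have no match in the other members, where the nearest stretch needed 39 edits or more.
Gm27149 and 9130208D14Rik: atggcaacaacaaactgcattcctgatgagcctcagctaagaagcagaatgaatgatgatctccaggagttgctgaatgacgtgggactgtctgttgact
Gm4070, Gvin1 and Gm8979: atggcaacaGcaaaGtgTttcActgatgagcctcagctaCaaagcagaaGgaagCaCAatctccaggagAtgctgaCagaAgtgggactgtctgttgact
Gm8995: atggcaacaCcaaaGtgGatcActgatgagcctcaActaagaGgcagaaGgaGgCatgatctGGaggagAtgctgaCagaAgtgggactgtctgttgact
Gm45912: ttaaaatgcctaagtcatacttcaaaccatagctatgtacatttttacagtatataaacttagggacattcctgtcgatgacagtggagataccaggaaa

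The values, called scaled reads, are counts brought by the authors to a total of 20000000 in each library, with fractions rounded up. The paper's legends define the unit per kilobase of transcript. The values are read here as not divided by gene length, because each library sums to about 20000000. Values per kb of exon below rest on this reading. The estimated depth was 19880000 to 28680000 reads per library (median 22550000), and a value listed as 0 allows up to 2.09 to 3.02, for counting error only. After group means were removed, libraries of the same line correlated in each of 45 pairs of treated libraries (r from 0.219 to 0.806). The untreated library labelled line 1 correlated with treated libraries of line 2 (median r = 0.541) more than with those of its own line (0.0751), and that labelled line 2 with line 1 (0.353) more than with its own (0.132), so that the line labels of these 2 libraries are in doubt. The 10 epithelial markers summed to between 101057 and 149931 in each library and none was at 0 throughout. The 14 immune cell markers summed to between 364 and 618, most of it from Csf1r and Lyz2, and the 10 stromal and vessel markers to between 25 and 78. Among these, the leukocyte marker Ptprc was at 0 to 12 and the T cell marker Cd3e at 0 to 25 (25 in line 4 with PAM from day 2). The endothelial marker Pecam1 was at 1 to 28, while Cd4 and Cdh5 were at 0 in the untreated libraries. Others were higher, with Itgam at 1 to 68 (0 to 50 in a second row), Itgae at 12 to 44 and Pdgfrb at 6 to 35. Cd68 was at 16 to 27 in untreated libraries and at 54 to 86 with PAM from day 1.

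9130208D14Rik carried most of the locus in every library, and its level was highest in the untreated libraries and lowest in the PAM groups. Its values were 37462, 32131, 27107 and 27631 in untreated lines 1 to 4. In lines 1, 2 and 4 they were 26879, 23663 and 13280 in the direct 30 min group. All 3 lay under the lowest untreated library, although that of line 1 was close to it. In the direct 24 h group they were 5814, 7085 and 2248, and in the indirect day 1 group 11165, 8750 and 3864. These 2 groups overlapped each other and neither reached the level of the 30 min libraries. With PAM from day 1, the values were 174, 990 and 841 in the same lines. With medium from day 2 they were 4092, 3149 and 1579 for indirect CAP and 2197, 857 and 97 for PAM. The order of the group medians was untreated (29881), direct 30 min (23663), indirect day 1 (8750), direct 24 h (5814), indirect day 2 (3149), PAM day 2 (857) and PAM day 1 (841). The first 3 groups in this order did not overlap with one another, and each later pair of neighbours did. In bulk libraries, fewer cells that express a gene and less RNA per cell cannot be told apart.

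**Figure D3:**
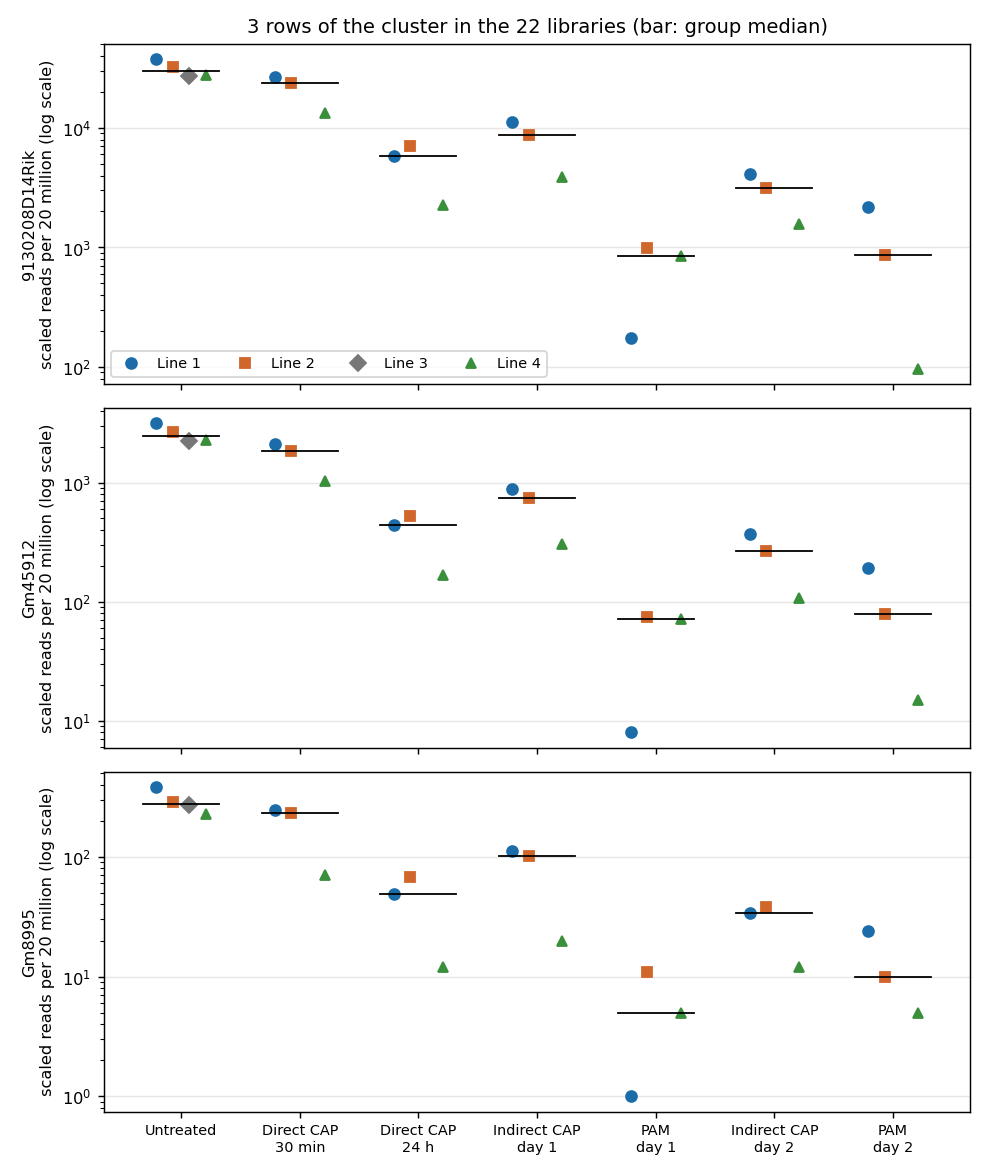
Values (scaled reads, log scale) of 9130208D14Rik, Gm45912 and Gm8995 in each of the 22 libraries by group, with colour and symbol for the organoid line and a bar at the group median. For 9130208D14Rik, untreated libraries lie between 27107 and 37462 and PAM libraries from day 1 between 174 and 990, and line 4 is the lowest library in 5 of the 6 treated groups.

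Relative to the untreated libraries, the log2 difference of 9130208D14Rik, on the log2(value + 1) scale, was -0.60 ± 0.24 (SE) in the direct 30 min group and -2.77 ± 0.35 in the direct 24 h group. Indirect CAP from day 1 gave -2.09 ± 0.32 and PAM from day 1 gave -5.87 ± 0.53. Medium from day 2 gave -3.50 ± 0.29 for indirect CAP and -5.76 ± 0.88 for PAM. These comparisons share the untreated libraries. Over the 9 libraries treated from day 1, the log2 difference from untreated was between -3.72 (Gm45912) and -2.92 (Gvin1) for the 9 members, beside a median of -0.05 over the 18490 genes tested. For 9 of 9 members, every library treated from day 1 lay below every untreated library, as it did for 10.5% of all genes tested, and nothing is read from this count because it is what the members were chosen for. Without the untreated libraries of lines 1 and 2, whose labels are in doubt, 9130208D14Rik was still at 27107 and 27631 in the remaining untreated libraries, against 11165 at most from day 1. After direct CAP for 30 min, 5 of 9 members lay below all untreated libraries (11.2% of genes tested did).

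Gm45912, the row with no shared sequence, followed 9130208D14Rik. Its values were 3146, 2678, 2222 and 2259 in untreated lines 1 to 4, and 2090, 1859 and 1023 in the direct 30 min group. The direct 24 h group had 438, 525 and 169. From day 1 there were 880, 743 and 308 with indirect CAP but 8, 74 and 72 with PAM. Medium from day 2 left 369, 268 and 107 in the indirect and 193, 79 and 15 in the PAM group. The low library of PAM from day 1 was thus line 1, as for 9130208D14Rik, and the low library of PAM from day 2 was line 4. Per kb of exon, Gm45912 stood at 4744 in the untreated mean, 111% of the 4262 of 9130208D14Rik. In the annotation used here, Gm45912 and 9130208D14Rik are separate rows, and whether both come from the same transcript was not tested.

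Of the coding members, the row of Gvin1, the gene that gives the family its name, had few reads. It had values of 23, 15, 14 and 29 in untreated lines 1 to 4, 9, 11 and 5 after direct CAP for 30 min, and 10 or less in every other treated library. It reached 10 in 6 of the 22 libraries and did not pass the filter on low values (10 or more in at least 3 libraries compared) in any comparison tested. Gm4070 had 198, 169, 129 and 125 in untreated organoids, 102, 118 and 67 after 30 min, 28, 34 and 6 after 24 h, 54, 36 and 18 in the indirect day 1 group and 0, 5 and 5 in the PAM day 1 group. Its exons are long, and per kb the untreated mean was 16.7 for Gm4070 and 2.25 for Gvin1, against 4262 for 9130208D14Rik. As counted, the rows of Gm4070 and Gvin1 were at 0.393% and 0.0528% of that of 9130208D14Rik per kb. Of their windows, 4.36% and 2.22% are found in no other gene. How reads mapping to more than 1 place were counted is not given, so that the expression of the coding genes may differ from these values.

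The antisense row Gm20663 had values close to those of Gm4070 in every library, with 174, 156, 119 and 111 in untreated organoids, 94, 104 and 60 after 30 min and 0, 3 and 4 with PAM from day 1. In the 17 libraries where 9130208D14Rik was at 1000 or more, its value was 71.4% to 100% of that of Gm4070 (median 91.7%). Its exon opposite Gm4070 and the sequence it shares with 9130208D14Rik stand beside this ratio, and their part in it was not tested. Gm27149, the copy of the 5′ end of 9130208D14Rik, had 179, 183, 117 and 193 in untreated organoids, 138, 129 and 70 after 30 min, and 3, 6 and 6 with PAM from day 1. None of its 100-base windows is unique.

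Of the other pseudogenes, Gm8995, whose sequence is mostly unique, had 382, 285, 273 and 230 in untreated organoids, 247, 233 and 70 after direct CAP for 30 min, 49, 68 and 12 after 24 h, 111, 102 and 20 in the indirect day 1 group, and 1, 11 and 5 with PAM from day 1. Day 2 medium left 34, 38 and 12 in the indirect and 24, 10 and 5 in the PAM group. Line 4 was the lowest library in 5 of its 6 treated groups. Gm1966 had 45, 46, 44 and 31 in untreated organoids, 33, 33 and 14 after 30 min, and at most 17 in any other treated library. Gm8979 had 65, 70, 59 and 43, then 50, 66 and 17 after 30 min, and at most 32 in any other treated library. Neither reached 10 in more than 11 of the 22 libraries.

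The proportions of the rows within the locus were compared across its levels. 9130208D14Rik made up 89.4% to 91.7% of the summed values of the 9 members in the 17 libraries where it was at 1000 or more. The sum itself ran from 0.208% of all scaled reads in untreated line 1 to 0.00059% in line 4 with PAM from day 2. In the same 17 libraries, Gm45912 was between 6.78% and 9.02% of 9130208D14Rik (median 7.97%), Gm4070 between 0.267% and 0.546% (median 0.480%) and Gm27149 between 0.364% and 0.751% (median 0.570%). Rows with fewer reads ranged more widely, Gm8979 from 0.086% to 0.287%, Gm1966 from 0 to 0.244% and Gvin1 from 0 to 0.137%. Across the 22 libraries, the 36 pairs of members had Pearson correlations of log2(value + 1) between 0.865 and 0.998 (median 0.945). This is a description, since the pairs share the libraries, the treatments and in part the sequence. Gm8995 was the row whose proportion differed most by line. It was 0.831% to 1.09% of 9130208D14Rik in 6 libraries of line 1 and 0.887% to 1.21% in 5 of line 2, but 0.518% to 0.832% in 5 of line 4, whose highest value was the untreated library. This difference was not tested.

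**Figure D4:**
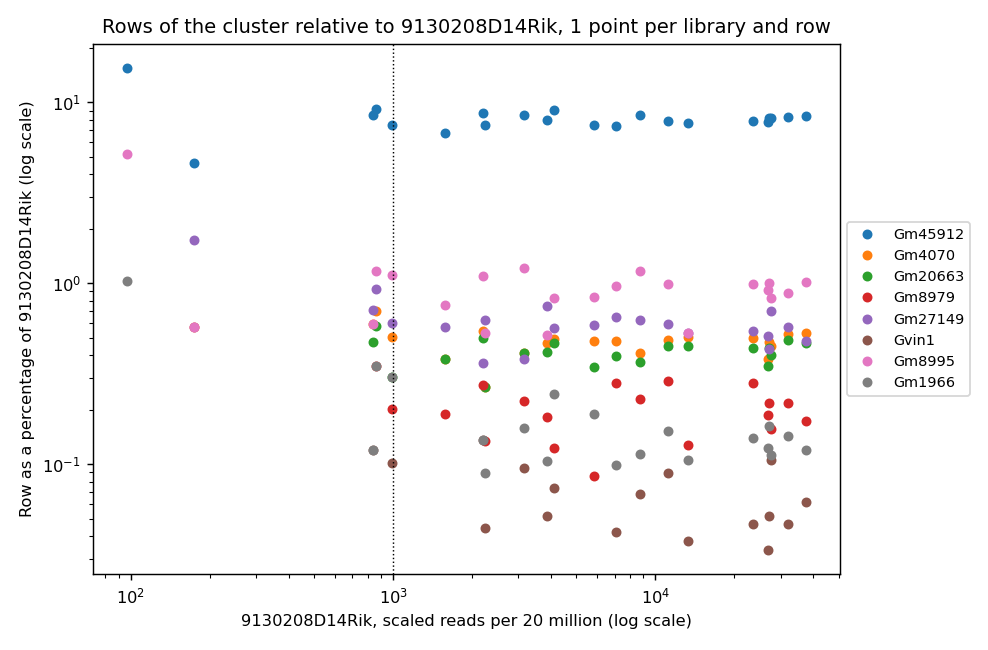
Each of the other 8 rows as a percentage of 9130208D14Rik (vertical axis, log scale) against the value of 9130208D14Rik (horizontal axis, scaled reads, log scale), 1 point per library and row, with values of 0 left out. To the right of the dotted line at 1000, Gm45912 stays between 6.78% and 9.02%, while points to its left rest on few reads and scatter more widely.

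How timing relates to the level of the locus was asked in 9 libraries outside the comparison behind the choice of members, day 1 against untreated. These were the libraries with indirect CAP or PAM from day 2 (6) and those after direct CAP for 30 min (3). The members were chosen with earlier results of these data known, so that these 9 libraries may not be independent of the choice. All 9 members were lower with medium from day 2 in every library than in any 30 min library (19.3% of the 18531 genes tested were lower without overlap). For 9130208D14Rik, the 30 min libraries lay between 13280 and 26879 and the day 2 libraries between 97 and 4092, a log2 difference of -4.03 ± 1.002 (SE), with a 95% interval from -6.26 to -1.79. This was not past the threshold (limma adjusted p = 0.0181 over all genes tested, the call requiring less than 0.01 and a change of at least 1 on the log2 scale). Of the 8 members that passed the filter, 2 were called lower, Gm8995 (-3.19 ± 0.64, limma adjusted p = 0.0086) and Gm8979 (-3.24 ± 0.67, limma adjusted p = 0.00945), the row that shares most of its windows with Gm8989, where 2.84% of genes tested were called lower. The limma adjusted p of the other 6 was 0.0113 to 0.0181, with log2 differences from -4.03 to -2.85. The median over all genes tested was -0.09. Gm8979, Gm27149 and Gm1966 passed the filter only through the 30 min libraries, where they were higher. Neither the call of Gm8979 nor a count over the 8 members is therefore support for a fall of the locus. The fit above takes the 9 libraries as independent, although all come from the mice of lines 1, 2 and 4. With line as a replicate block, 8 of 8 members were called (limma adjusted p = 0.00128 to 0.00642), where 5.14% of genes were called lower. Without line 4, 6 of 7 members were called, where 2.07% of genes were called lower. When 1 library was left out, the number called was 0 without the 30 min library of line 1 or 2, the indirect day 2 library of line 4 or the PAM day 2 library of line 1 or 2. It was 1 without the 30 min library of line 4 or the indirect day 2 library of line 2, 4 without the indirect day 2 library of line 1, and 7 without the PAM day 2 library of line 4. The share of all genes called lower was 0.0871% to 1.49% in the fits with 0 members called, 1.04% and 1.8% in those with 1, 3.07% in that with 4 and 3.66% in that with 7. The groups differ in how the plasma was applied as well as in time, and these cannot be told apart.

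The 2 conditioned media were then compared. With medium from day 1, all 9 members were lower with PAM than with indirect CAP in every library (19.8% of genes tested were lower without overlap). 9130208D14Rik stood at 174, 990 and 841 with PAM against 11165, 8750 and 3864 with indirect CAP, a log2 difference of -3.78 ± 0.69 (95% interval -5.34 to -2.22). None of the 8 members tested was past the threshold (limma adjusted p = 0.148 to 0.184, and 0.444 to 0.553 after Holm's correction over the 3 pairs of methods), and 0% of the 18112 genes tested were called by limma, although 3331 had an unadjusted p under 0.05. With the replicate block by line, 5 of the 8 were called lower, where 0.657% of genes tested were called lower. They were Gm27149, Gm8979, 9130208D14Rik, Gm45912 and Gm8995, with limma adjusted p from 0.00526 to 0.00846. Among the members, 9130208D14Rik alone reached 10 in all 3 PAM libraries. The rest passed the filter through the other day 1 groups, and the members were chosen on these libraries together, so that the count of members called is no support for a difference of the locus.

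The other pairs of methods at day 1 gave no call in either fit. PAM against direct CAP for 24 h had a log2 difference of -3.10 ± 0.69 for 9130208D14Rik (95% interval -4.66 to -1.54, limma adjusted p = 0.254). Of the 9 members, 7 did not overlap between these groups (10.1% of genes tested were lower without overlap), and 0% of genes were called by limma, with 2255 at an unadjusted p under 0.05. With the replicate block its limma adjusted p was 0.0276. Indirect CAP against direct CAP for 24 h had a difference of 0.68 ± 0.69 (95% interval -0.88 to 2.23, limma adjusted p = 0.733), with overlapping values in all 9 members (10.7% of genes tested were higher without overlap). Here 0% of genes were called by limma as well, and 1499 had an unadjusted p under 0.05.

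With medium from day 2, the difference between PAM and indirect CAP was -2.26 ± 1.07 for 9130208D14Rik (95% interval -4.80 to 0.27, limma adjusted p = 0.559). The groups overlapped, with 97, 857 and 2197 for PAM and 1579, 3149 and 4092 for indirect CAP, and 1 of 9 members did not overlap (13.6% of genes tested were lower without overlap). Only 5 members passed the filter, and none was called (limma adjusted p = 0.559 to 0.647). Of all 17755 genes tested, 0% were called by limma, and 1683 had an unadjusted p under 0.05. The difference between the media was itself compared between day 2 and day 1. For 9130208D14Rik the difference of differences was 1.52 ± 1.43 (95% interval -1.63 to 4.67), and for the 7 members tested the limma adjusted p was 0.986 to 0.993, or 0.383 to 0.651 with the replicate block.

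**Figure D5:**
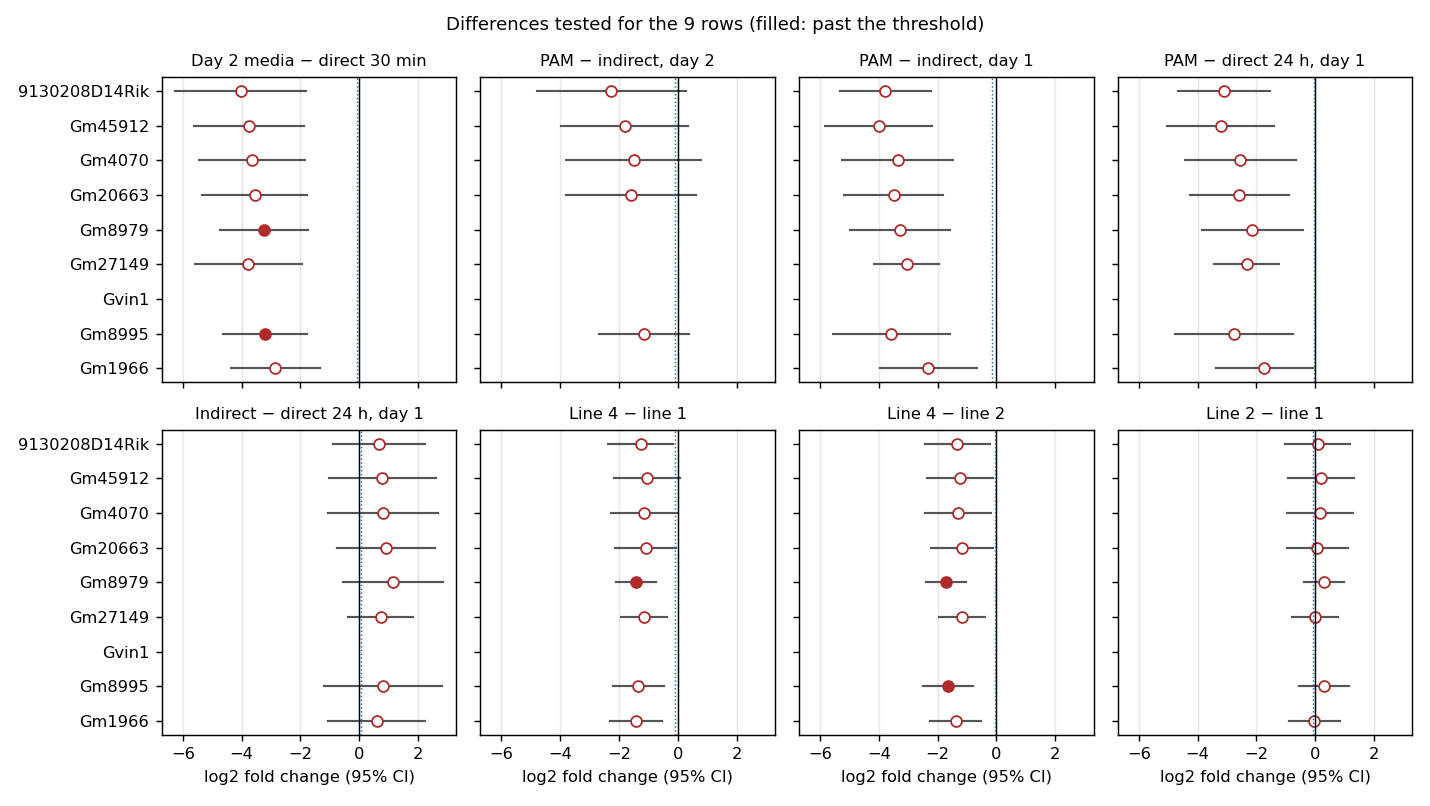
Log2 fold change (points) with its 95% interval (lines) of each member in 8 comparisons, filled where past the threshold, with the median of all genes as a dotted line; members without a point did not pass the filter. The points of the first panel lie between -4.03 and -2.85 with 2 filled, those of PAM against indirect CAP from day 1 between -4.00 and -2.32 with none filled, and those of line 2 against line 1 lie around 0.

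The organoid lines were compared as well. Each line is 1 mouse, so that these tests rest on the spread among cultures of the same mice and not among mice. In the 18 treated libraries, with the group as a term of the fit, the 8 members tested were lower in line 4 than in line 1 by log2 differences of -1.42 to -1.04 and than in line 2 by -1.71 to -1.16. Line 4 was the lowest in 5 of 6 treated groups for 9130208D14Rik, at 13280 against 23663 and 26879 after direct CAP for 30 min, for instance. Past the threshold were Gm8979 against line 1 (-1.42 ± 0.32, limma adjusted p = 0.00487) and Gm8979 (-1.71 ± 0.32, limma adjusted p = 0.000861) and Gm8995 (-1.65 ± 0.41, limma adjusted p = 0.00644) against line 2. These are 1 and 2 of 8 members, where 1.64% and 3.41% of genes tested were called lower. Gm8989, the pseudogene that shares 61.5% of the windows of Gm8979, was called in the opposite direction, higher in line 4 than in line 1 (2.02 ± 0.45, limma adjusted p = 0.00475) and line 2 (1.81 ± 0.45, limma adjusted p = 0.00681). In treated libraries, Gm8989 reached 10 only in line 4, at 14 (direct 30 min), 10 (indirect day 1) and 16 (indirect day 2). It thus passed the filter only through the line where it was higher, and its calls are no support for a line difference. The part of shared reads in the calls of Gm8979 or Gm8989 was not tested. The difference of 9130208D14Rik was -1.25 ± 0.52 against line 1 (limma adjusted p = 0.0861) and -1.34 ± 0.52 against line 2 (limma adjusted p = 0.0647). In line 2 against line 1, the members differed by -0.03 to 0.30 and none was called (limma adjusted p = 0.595 to 0.999), where 2.42% of genes were called in either direction. The 95% interval of this last difference was -1.02 to 1.19 for 9130208D14Rik.

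The line differences moved with the PAM libraries from day 1, in which line 1 and not line 4 was lowest for 7 of the 8 members tested. Gm8979, at 1, 2 and 0 in lines 1, 2 and 4, was the exception. Without the PAM groups, 7 of 8 members were called lower in line 4 against line 1 (1.32% of genes tested were called lower) and 7 of 8 against line 2 (2.97% were). When the line 1 library of PAM day 1 alone was left out, 8 and 6 of the 8 were called (1.75% and 3.58% of genes were called lower), and when that of line 4 was left out, 4 and 8 (1.71% and 3.82%). With each of the 18 libraries left out in turn, Gm8979 lost its call against line 1 in 7 fits and against line 2 in 0. Gm8995 lost its call against line 2 in 10 of 18. Per the labels, line 4 was at passage 4 and lines 1 and 2 at passage 12 and 14. The methods list the mice at passage 12 and 14 as male and the others of that experiment as female. They give these others passage 2 and not 4, so that the sex of line 4 rests on an assumed match. On this reading, line, passage and sex cannot be told apart. In the untreated libraries, line 4 at 27631 lay beside line 3 (27107), and both were lower than the libraries labelled line 1 (37462) and line 2 (32131).

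The genes whose values followed the sum of the 9 members most closely over the 22 libraries, among 19361 genes, were Ifitm3 (Pearson r = 0.983), Smoc2 (0.979), 1600014C10Rik (0.968), Axin2 (0.963) and Lgr5 (0.963). Ifitm3, an interferon-induced transmembrane protein of late endosomes that restricts virus entry, and 1600014C10Rik lie on chromosome 7 too. Axin2 is a Wnt feedback gene, Lgr5 marks crypt base stem cells and Smoc2 is a secreted matrix protein enriched in the same cells. Ifitm3 had a median of 757.5 in untreated organoids and 600 after direct CAP for 30 min, then 198 after 24 h. The day 1 medians were 334 for indirect CAP and 42 for PAM, and those of day 2 were 120 and 45. Lgr5 went in the same order of groups from a mean of 1806 ± 721 (SD, n = 4) to 1503 ± 716, 343 ± 210.2, 457 ± 237, 65.0 ± 40.4, 118 ± 76.8 and 44.0 ± 46.1 (n = 3 each). All 5 were picked for this likeness, so their values are a description. With medium from day 2 against direct 30 min, the log2 differences of Lgr5 and of Olfm4, another marker of crypt stem cells, were -4.68 ± 0.87 and -4.63 ± 0.52. The part of a change in cell types in the values of the locus was not tested.

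Neighbouring genes were compared with the locus. Of the 10 further annotated genes that lie in the span or overlap its edge, 3 passed the filter. Gm15645, which begins outside the span, and Gm8982, processed pseudogenes on the plus strand with nearly equal values, had medians of 10.5 each in untreated organoids and 13 each with PAM from day 1 (correlation with the sum of -0.16 and -0.14). Gm8989, a pseudogene of the array, had 58 in untreated line 4 and 4 to 7 in the other untreated lines, and in treated libraries 1 to 16 in line 4 and 0 to 4 in the others. Outside the span, Mrpl17, which encodes a mitochondrial ribosomal protein 12165 bases away, had a median of 1699.5 in untreated organoids and 1354 with PAM from day 1. Tpp1, which encodes a lysosomal peptidase 71029 bases away, had 868 and 1408. Of the 18 neighbours within the span or 500 kb tested with medium from day 2 against direct CAP for 30 min, 1, Olfr1532-ps1, was called lower and 0 higher, where 4.62% of genes were called in either direction. Olfr1532-ps1 passed the filter only through the 30 min libraries, where it was higher, so that its call is no support for a fall near the locus.

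Other interferon-inducible GTPases were low in these organoids, and 1 of them was called lower beside the locus. Of the 26 listed, guanylate-binding proteins, immunity-related GTPases and Mx proteins, 5 passed the filter with medium from day 2 against direct CAP for 30 min. Irgm1, an immunity-related GTPase with roles in autophagy, was called lower (-1.37 ± 0.26, limma adjusted p = 0.00703), with a mean of 213 ± 56.1 (SD, n = 3) after 30 min, 94.7 ± 21.8 in the indirect day 2 group and 69.7 ± 15.4 in the PAM day 2 group. The other 4 had values on the higher side and none was called, so that the list had 1 call lower and 0 higher and a median log2 difference of 1.14. All 5 passed the filter in the day 2 libraries alone. The 4 on the higher side may have passed only there, so that this median is no support for a rise. Mx1, an antiviral dynamin-like GTPase, had a mean of 17.0 ± 8.12 (n = 4) in untreated organoids, where 9130208D14Rik was at its highest, and 67.0 ± 12.5 (n = 3) with PAM from day 2, where it was at 1050 ± 1063. Its difference in this comparison was 1.14 ± 0.38 (limma adjusted p = 0.0495).

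All 19 genes of interferon receptors and signalling passed the filter in the same comparison, 7 had lower and 12 higher values, and 0 were called by limma, with a median of 0.20. The 2 with the highest values were the interferon gamma receptor chain Ifngr1 (0.43 ± 0.14, limma adjusted p = 0.0497) and the kinase Jak1 (-0.00 ± 0.09, limma adjusted p = 0.976). Of 38 other interferon-stimulated genes, 32 passed the filter, and 1, the nucleotide hydrolase Samhd1, was called lower (-1.12 ± 0.21, limma adjusted p = 0.00756), with a median of 0.22 over the list. In the 9 libraries treated from day 1 against untreated, the calls among these lists were 0 of 6 other GTPases, 3 of 19 receptor and signalling genes, all higher, and 10 of 33 other interferon-stimulated genes, of which 8 were higher and 2 lower. Over all genes tested, 6.34% were called (1173 genes, but 651 if untreated line 1 and 148 if untreated lines 1 and 2 were left out). The 2 lower ones were Ifitm2 (-1.38 ± 0.25, limma adjusted p = 0.00129) and Ifitm3 (-2.70 ± 0.67), which is among the 5 genes picked for likeness to the locus, so that its call is no independent result. The largest rise was that of Oasl1, an oligoadenylate synthetase-like protein (2.98 ± 0.31, limma adjusted p = 4.16e-05).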

How the data were processed

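Per the labels and the methods, total RNA of 22 organoid libraries was sequenced as paired-end reads of 100 bases. The authors trimmed reads with Trimmomatic 0.36, aligned them to GRCm38 with STAR 2.5.3a and counted them on Ensembl genes with HTSeq 0.9.1 (tools and versions per the submitters' processing notes). Each deposited value is a score, a read count that the authors brought to a library total of 20000000 and rounded up, with library totals of 20007540 to 20016513. Depth was estimated from the spacing of low values (at most 0.057% off in 4 simulated libraries). Because the raw counts were not used here, count tests were not run.

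The members and gene lists were chosen with earlier results of these data known. log2(value + 1) was tested with limma's trended moderated test (R 4.3.3, limma 3.58.1) over genes with 10 or more in at least 3 libraries fitted. Calls required a Benjamini-Hochberg adjusted p under 0.01 over all genes and a change of 1 or more on the log2 scale. Replicates are organoid lines of different mice, and no 2 libraries of a group were identical. Same-numbered samples were taken to come from the same mouse, which is in doubt for the untreated libraries labelled lines 1 and 2. A fit with line as a replicate block was run as well. The fits were tested on simulated data. Named genes are the 9 members, the 5 nearest patterns, the 5 nearest expressed neighbours, and in each interferon list the called genes with the largest change with medium from day 2 against direct CAP for 30 min, or the 2 highest. Mx1, Ifitm2, Oasl1, Olfm4, Csf1r, Lyz2, Ptprc, Cd3e, Pecam1, Cd4, Cdh5, Itgam, Itgae, Cd68 and Pdgfrb were named after their values were seen. Sequences were compared in GENCODE vM21 transcripts with Python 3.11.15 and edlib 1.3.9.post1. The alternatives tried were the replicate block, quantile normalization, 10 as the pseudocount, no filter on low values, other sets of libraries, a threshold of 0.05 without a fold limit, and leaving out each library in turn.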

Additional observations from a re-analysis of the deposited data

Results flagged for a closer look

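For Gm1966, 1 of the 4 untreated libraries lay far from the others. Its values were 45, 46, 44 and 31 in lines 1 to 4, so that the gap of line 4 to the nearest library was 0.867 of the whole range, above Dixon's critical value for 4 samples. Chance gives such a gap in about 1 in 20 groups, and 9 members were looked at in this group. The groups of 3 were not tested in this way.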

How the results depend on the processing

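With medium from day 2 against direct CAP for 30 min, 856 genes were called. The number was 1584 with line as a replicate block, 1810 with all 7 groups in one fit, 4972 at a threshold of 0.05 without a fold limit, and 39 (without the 30 min library of line 1) to 1011 when 1 library was left out. PAM against indirect CAP from day 1 gave 0 calls, 217 with the replicate block and 0 to 12 without 1 library. Line 4 against line 1 gave 737 calls and 459 with a pseudocount of 10. Line 2 against line 1 gave 464 calls, 0 when the untreated libraries of lines 1, 2 and 4 were added and 474 when these were added with lines 1 and 2 crossed. The 9 libraries from day 1 against untreated gave 1173 calls, 651 (without the untreated library of line 1) to 1309 without 1 library, and 148 without the untreated libraries of lines 1 and 2, an alternative chosen after seeing the data, as were leaving out line 4 or the PAM groups and the crossed lines.

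For the members, the number called with medium from day 2 against 30 min was 2 (2.84% of all genes were called lower), and 1 with no filter (1.51%), 6 with quantile normalization (3.32%), 7 with a pseudocount of 10 (3.28%), and 8 with the replicate block (5.14%), with all 7 groups (6.62%) or at the looser threshold (15.8%). PAM against indirect CAP from day 2 gave 0 member calls in each alternative. Signs changed in 2 comparisons, in which no member was called. Indirect CAP against direct CAP for 24 h was -0.021 for Gm1966 with quantile normalization. Line 2 against line 1 was 0.10 for Gm27149 and 0.038 for Gm1966 with quantile normalization, -0.0550 for Gm4070 and -0.0804 for Gm20663 with a pseudocount of 10, 0.0035 for Gm27149 with untreated libraries added, and -0.16, -0.15, -0.17 and -0.13 for 9130208D14Rik, Gm45912, Gm4070 and Gm20663 without the PAM groups. Without 1 library it ranged from -0.51 to 0.55 for 9130208D14Rik, -0.50 to 0.60 for Gm45912, -0.45 to 0.53 for Gm4070, -0.46 to 0.43 for Gm20663, -0.22 to 0.53 for Gm8995, -0.28 to 0.20 for Gm27149 and -0.47 to 0.26 for Gm1966. The cause of these changes was not tested. Members other than 9130208D14Rik and Gm45912 rest on few reads in the PAM groups. Gm8995 was at 1, 11 and 5 with PAM from day 1 and at 24, 10 and 5 from day 2 in lines 1, 2 and 4. Gm45912 too was low in single PAM libraries, at 8 in line 1 from day 1 and 15 in line 4 from day 2.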

Other observations

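Further along chromosome 7, 2 rows of the olfactory receptor family, named after their values were seen, also had low values after CAP. Olfr1532-ps1, which lies 303966 bases from the cluster, had a mean of 83.8 ± 17.4 (SD, n = 4) in untreated organoids, 50.7 ± 9.07 after direct CAP for 30 min, 16.7 ± 4.04 after 24 h, 19.3 ± 6.66 and 11.3 ± 5.13 in the indirect and PAM day 1 groups, and 6.0 ± 3.46 and 4.0 ± 4.36 in those of day 2 (n = 3 each). Olfr713, at 427139 bases, had values of 16 to 31 in untreated organoids and 0 to 2 with PAM from day 1. Olfr1532-ps1 was the neighbour called lower with medium from day 2 against direct CAP for 30 min (log2 fold change -3.37 ± 0.56, limma adjusted p = 0.00524). It passed the filter only through the 30 min libraries, where it was higher, so that this call is no support for a fall.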
